A study of Arabidopsis thaliana with 14 samples.

Results

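The genes described here are those whose locus numbers fall around the 5 centromeres of Arabidopsis thaliana, and they are followed in 5 mutants and wild-type Col-0. They were chosen by identifier alone: AT1G36000 to AT1G44000, AT2G06900 to AT2G13900, AT3G30000 to AT3G42000, AT4G05500 to AT4G08900 and AT5G28500 to AT5G35400, without AT1G37130, AT3G30720 and AT4G07995. This rule found 1582 of the 32548 rows of the deposited tables: 148 on chromosome 1, 724 on chromosome 2, 91 on chromosome 3, 495 on chromosome 4 and 124 on chromosome 5. RNA came from seedlings of 11 days, grown on plates in long days, and was read as single ends of 50 nt. One table held fve(-/-), the double mutant suvh2(-/-);suvh9(-/-), written suvh2/9, and their own Col-0. The other held rrm1(-/-), the triple mutant pdp1(-/-);pdp2(-/-);pdp3(-/-), written pdp1/2/3, the quadruple mutant pdp1/2/3;rrm1, and a second Col-0. Each of the 7 groups had 2 libraries, numbered 1 and 2 except for the second Col-0, numbered 3 and 4. The labels name no alleles, and do not say whether replicates were separate cultures or which groups were grown together, so p-values measure only the spread between these libraries.

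Pericentromeres of this plant are rich in transposons and repeats, and genes there sit among chromatin that carries DNA methylation and repressive histone marks. In the RNA-directed pathway, transcripts of RNA polymerase V guide new DNA methylation, and SUVH2 and SUVH9 bring this polymerase to DNA that is already methylated. FVE, which binds histones through its WD repeats, belongs to the autonomous flowering pathway, and the PDP proteins carry a PWWP domain and have been described as its partners. Genes that lie near methylated repeats can be silent in wild type and become transcribed when that methylation is lost. In seedlings the same regions also hold ordinary housekeeping and photosynthesis genes.

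The name pericentromeric fits only part of these loci. By their positions in the TAIR10.1 annotation, 800 members lay inside the span between the first and last protein-coding member of their window, and 782 lay elsewhere on the same chromosome (436 on chromosome 2, 343 on chromosome 4 and 3 on chromosome 3). Of the 800 inside, 744 were protein-coding. Of the 782 elsewhere, 659 were annotated as long non-coding RNA, 48 as snoRNA, 36 as miRNA, 19 as antisense RNA and 1 as protein-coding, so their numbers do not follow chromosome order. Conversely, 176 rows that are no members lay inside the spans. Members are therefore called by locus number below, and each named one by whether it lay inside or outside the span.

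Sequence before the annotated start is shown for 4 members on which the results turn, in windows of 250 bases. AT2G10975 (chr2:4334709-4334958, plus strand), inside its span, and the noncoding AT2G06995 (chr2:7632964-7633213, plus strand) were both higher in suvh2/9. SHM7 (AT1G36370, chr1:13698740-13698989, minus strand) and ACS11 (AT4G08040, chr4:4886712-4886961, plus strand) were higher in pdp1/2/3. Capitals mark CG dinucleotides, the sites of the most stable plant DNA methylation.
AT2G10975: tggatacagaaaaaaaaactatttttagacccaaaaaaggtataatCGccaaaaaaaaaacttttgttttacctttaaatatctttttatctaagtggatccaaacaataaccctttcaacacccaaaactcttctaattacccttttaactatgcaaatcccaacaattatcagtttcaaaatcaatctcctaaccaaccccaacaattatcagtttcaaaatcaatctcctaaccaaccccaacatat
AT2G06995: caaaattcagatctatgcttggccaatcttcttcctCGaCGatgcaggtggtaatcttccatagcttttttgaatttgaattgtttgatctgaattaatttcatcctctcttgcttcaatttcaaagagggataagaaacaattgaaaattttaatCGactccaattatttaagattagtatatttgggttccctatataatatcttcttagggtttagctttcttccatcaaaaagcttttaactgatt
SHM7: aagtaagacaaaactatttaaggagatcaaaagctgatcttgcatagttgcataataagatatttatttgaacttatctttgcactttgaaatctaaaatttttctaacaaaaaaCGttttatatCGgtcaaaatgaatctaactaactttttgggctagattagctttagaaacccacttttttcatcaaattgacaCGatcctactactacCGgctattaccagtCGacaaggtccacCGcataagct
ACS11: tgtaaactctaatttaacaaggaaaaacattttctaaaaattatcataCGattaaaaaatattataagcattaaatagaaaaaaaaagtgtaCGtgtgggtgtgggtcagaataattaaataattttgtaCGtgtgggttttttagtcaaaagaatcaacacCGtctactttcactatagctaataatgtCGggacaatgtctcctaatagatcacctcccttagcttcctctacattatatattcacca
The window of AT2G10975 held 1 CG site, that of AT2G06995 3, that of SHM7 6 and that of ACS11 5, where the median was 5 both over members inside the spans and over all rows. At least 1 CG site was held by 96.2% of all rows. The windows overlapped no annotated exon. All were read from the RefSeq TAIR10.1 genome, which may differ from the build of the authors.

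Base composition upstream is given as a description, with no test. The median GC content of the 250 bases was 29.2% for the 251 members inside the spans that were tested in either table, and 34% for the 549 others inside the spans. The same medians were 31.2% and 31.6% among all other rows. The TATAAA hexamer, searched on both strands, was in 43.1% of members inside the spans and 46.1% of all rows. CACGTG, the core of the G-box, was in 2.88% against 5.9%. GGCCCA was in 5.5% against 12.5%, and AAACCCTA, the telobox, in 5.12% against 4.61%. Among members inside the spans that were tested in either table, the shares were 51% for TATAAA, 4.38% for CACGTG, 8.76% for GGCCCA and 2.79% for AAACCCTA, against 46.2%, 7.41%, 16.5% and 3.57% of the other rows tested. Of the 4 windows printed, those of SHM7 (TATAAA) and AT2G06995 (AAACCCTA) held 1 of these motifs each.

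Most members were not expressed at a testable level. Values are the deposited normalised signal per 1000000 of the mean library total of a table (CPM). The unit of this signal is not defined in the sources used, and it is read here as counts. On that reading 1 count is 0.0465 CPM in the first table and 0.052 CPM in the second. A count of 0 then allows a level of up to 0.14 and 0.156 CPM from counting error alone. A gene entered the test where 2 or more libraries of its table reached 1 CPM. That left 251 members in the first table (15.9%) and 256 in the second (16.2%), against 18839 (60.8%) and 18985 (61.3%) of the other rows. In all, 240 members were tested in both tables, 11 in the first only, 16 in the second only and 1315 in neither, and 760 were at 0 in all 14 libraries. Results below are thus about a minority of the members, selected by level.

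Members inside and outside the spans differed in how often they were tested, but also in gene type. As 744 of the 800 inside and 1 of the 782 outside were protein-coding, position and gene type cannot be told apart in this contrast. Inside the spans 238 and 243 of 800 were tested (29.8% and 30.4%), and outside them 13 of 782 in each table (1.66%). Among protein-coding members inside the spans the share was 31.5% and 32.1%, among protein-coding genes in the 1000 rows flanking the windows 47.6% and 47.4%, and among all other protein-coding rows 69.7% and 70.3%. The long non-coding members outside the spans were tested in 1.67% of cases in either table, against 3.78% and 4.1% of the long non-coding rows that are no members. Inside the spans 1 of 17 long non-coding members was tested in each table, too few to compare by position.

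**Figure D1:**
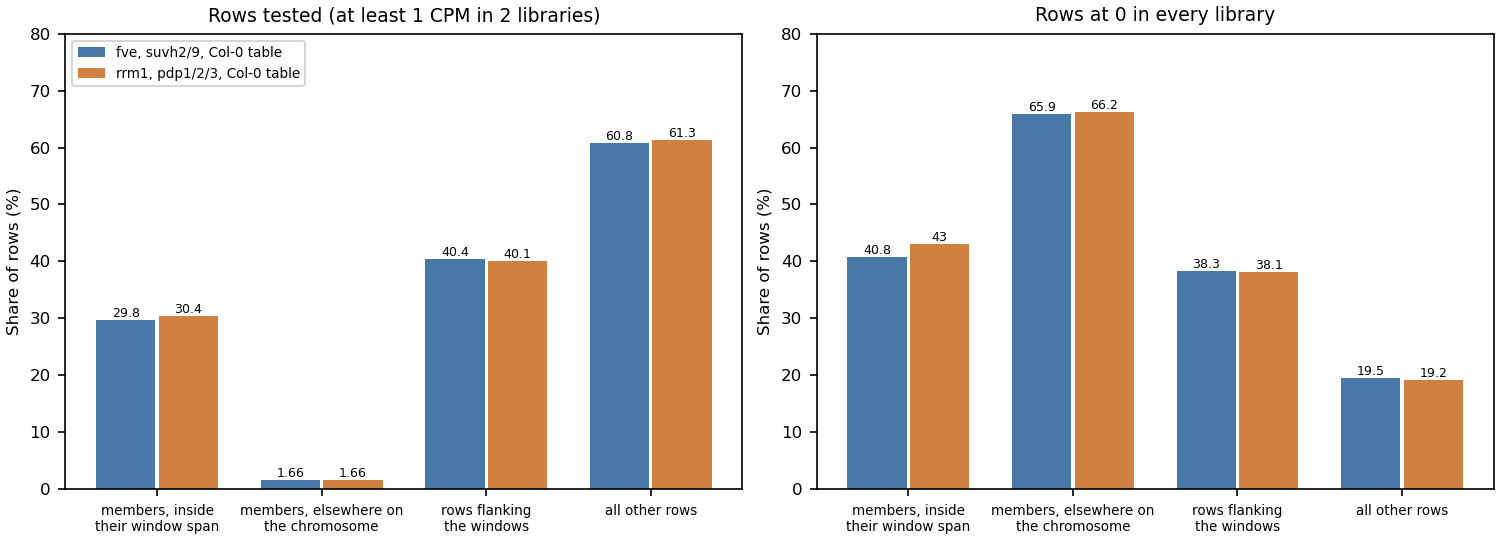
Share of rows that passed the filter (left) and share at 0 in every library of a table (right), in percent, for members inside and outside the spans, flanking rows and all other rows; bar colours stand for the 2 tables. Members inside the spans passed in 29.8% and 30.4% of cases and all other rows in 60.8% and 61.3%.

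Members that were tested had levels like those of other genes. Their median level per kb of exon was 9.57 CPM in the first table and 9.11 CPM in the second, against 9.07 and 9.06 CPM for the other rows tested. By window, this median was highest on chromosome 1 (14.8 and 16.1 CPM per kb), similar on chromosome 5 (14.1 and 13.7) and chromosome 3 (13.4 and 16), then 8.13 and 8.88 on chromosome 4, and lowest on chromosome 2 (4.88 and 3.45). The interquartile ranges of the windows overlapped one another. Summed over all members, levels were 15028 to 15715 CPM in the 4 mutant libraries of the first table, against 15559 and 16118 CPM in Col-0. They were 14462 to 15053 CPM in the 6 mutant libraries of the second table, against 15055 and 15434 CPM in Col-0. In every library members thus held between 1.45% and 1.61% of the mean library total of the table.

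A few photosynthesis and housekeeping genes carried much of this sum. GAPB (AT1G42970), a subunit of the glyceraldehyde-3-phosphate dehydrogenase of the Calvin cycle, was among the most abundant members, at 1119 and 1256 CPM per kb on average in fve and suvh2/9, against 1279 in Col-0. In the second table it was at 832 CPM per kb in pdp1/2/3, 896 in the quadruple mutant and 894 in rrm1, against 1011 in Col-0. AGT (AT2G13360), the photorespiratory alanine:glyoxylate aminotransferase, was at 751 and 825 CPM per kb in fve and suvh2/9, against 857 in Col-0. GAPB and AGT were not called in any comparison with Col-0. The lipid-transfer family gene AT2G10940 was at 803 and 706 CPM per kb in fve and suvh2/9, against 751 in Col-0. It was called higher only in pdp1/2/3, where it reached 994 CPM per kb, against 767 in Col-0. That call was lost without Col-0 replicate 3 or pdp1/2/3 replicate 2, with no filter, and with no mean-variance trend in the fit.

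Markers of leaf and of root were both abundant. The leaf gene RBCS1A was at 13500 to 19270 CPM and the root gene PYK10 at 1274 to 1998 CPM over the 14 libraries. In such bulk RNA fewer cells of a type and less RNA per cell cannot be told apart. Of 3 seed and 3 flower genes, CRA1 and PI stood out in both groups that carry rrm1. The seed storage gene CRA1 was at 16.9 and 10.6 CPM in the quadruple mutant and 11.1 and 22.9 CPM in rrm1, against 0.308 and 0.265 CPM in Col-0, and the floral organ gene PI was at 5.07 and 4.74 CPM in the quadruple mutant and 5.15 and 3.53 CPM in rrm1, against 0.667 and 0.583 CPM in Col-0. The seed gene CRU3 reached 4.56 CPM in quadruple replicate 1 and 6.43 CPM in rrm1 replicate 2 and was near 0 in the other libraries, while SESA1, AG and AP3 reached at most 0.77 CPM in any library. The part of these transcripts in the results on rrm1 and the quadruple mutant was not tested.

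On chromosome 2 the windows include nuclear copies of mitochondrial DNA, and reads from the organelle can be counted there. For 115 members at least 50% of the gene had a copy of at least 95% identity in the mitochondrial genome. They summed to 53.8 to 72.8 CPM in the mutant libraries of the first table, against 56 and 59.4 CPM in Col-0, and to 73 to 86.3 CPM in those of the second, against 73.2 and 74.4 CPM in Col-0. Libraries numbered 1 of both fve (72.4 CPM) and suvh2/9 (72.8 CPM) stood above those numbered 2 (53.8 and 56.8 CPM). Much of that gap lay at 1 locus, AT2G07732, annotated as a rubisco large chain. It had 18.7 and 5.8 CPM in fve and 18.85 and 6.98 CPM in suvh2/9, against 7.93 and 8.16 CPM in Col-0. AT2G07739, another abundant copy, differed less, with 15.6 and 14 CPM in fve and 17.9 and 17.7 CPM in suvh2/9. Of these members 13 and 20 were tested, and 0 were called in any comparison, where the share over all tested genes was 1.89% in fve, 0.571% in suvh2/9, 4.03% in rrm1, 18.3% in pdp1/2/3, 17.8% in the quadruple mutant, 2.06% in fve against suvh2/9 and 0.301% for the interaction. At an unadjusted p below 0.05 in limma there were 0 in fve and in suvh2/9, 2 in rrm1, 1 each in pdp1/2/3 and the quadruple mutant, 2 in fve against suvh2/9 and 0 for the interaction. Of all tested genes, 14% in fve, 6.64% in suvh2/9, 18.9% in rrm1, 31.1% in pdp1/2/3 and 31.2% in the quadruple mutant lay below that level. The share was 14.1% in fve against suvh2/9 and 11.6% for the interaction.

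Comparing suvh2/9 with Col-0 asks which members respond to loss of SUVH2 and SUVH9. AT4G06265, AT1G36675, AT2G10975 and AT2G06995, all at most 0.321 CPM in Col-0, rose in suvh2/9, as did AT3G32030 and the kinase gene AT2G07180, and 3 genes fell. The threshold for a call was an adjusted p of 0.05 (limma, Benjamini-Hochberg over all tested genes) on log2 of CPM + 1, a scale that shrinks the differences of low genes. Of 251 members 9 were called, 6 higher and 3 lower, or 3.59%, where 0.571% of all 19090 tested genes were called (109 genes, 0.388% higher and 0.183% lower). AT1G36675, AT2G10975 and AT4G06265 passed the filter only through suvh2/9, the group in which they are high, so their calls cannot support that share. In a count chosen after seeing the data, without every gene that passed only through the higher of the groups compared, 6 of 243 members were called (2.47%), and 0.488% of all genes (92 of 18853). AT2G06995 stayed among these 6, though it passed the filter only through suvh2/9 and fve, in both of which it was high. In the 1000 rows flanking the windows, 100 on either side of each, the share was 3.47% (14 of 404), close to that of the members. The median log2 difference of the members was 0.02, and that of all tested genes 0.00. As a check of the labels, SUVH9 was at 1.13 and 0.942 CPM in suvh2/9, against 40.7 and 42.8 CPM in Col-0. SUVH2 was at 7.27 and 7.34 CPM in suvh2/9, against 9.49 and 9.42 CPM. Most SUVH2 RNA thus remained, and its level does not check the suvh2 part of the label. The targeted genes of rrm1, pdp1/2/3 and the quadruple mutant were not analysed here, so the labels of these groups had no such check.

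AT3G32030 (inside, chr3:13032306-13035440), of the terpenoid cyclase family, whose members make triterpenes and related compounds, showed the largest difference on the log2(CPM + 1) scale. It had 15.7 and 12.9 CPM in suvh2/9 and 0.742 and 0.877 CPM in fve, against 1.33 and 1.41 CPM in Col-0. Both suvh2/9 libraries stood above all other libraries of the table, by 2.69 on the log2 scale over Col-0 (SE 0.14, adjusted p = 6.5e-07, limma), and its mean CPM was 10.5 times that of Col-0. A copy of at least 95% identity elsewhere in the nuclear genome covers 88.5% of this gene, so reads of the copies may not be told apart. In the second table it lay between 1.44 and 2.05 CPM in the mutants, against 1.13 and 1.22 CPM in Col-0, with no call.

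Both AT1G36675 and AT2G10975 were near 0 in Col-0. AT1G36675, a glycine-rich protein gene, had 2.96 and 2.4 CPM in suvh2/9 and 0.417 and 0.415 CPM in fve, against 0.0456 and 0.0937 CPM in Col-0 (suvh2/9 over Col-0: log2 1.78, SE 0.17, adjusted p = 0.000183, and 0.00252 with no filter, limma). AT2G10975, of no described function, had 2.02 and 2.31 CPM in suvh2/9 and 0.0464 and 0.0461 CPM in fve, and was at 0 in both Col-0 libraries. Its mean in suvh2/9 was at least 15.5-fold higher than the level that 3 counts in a Col-0 library would give (log2 1.66, adjusted p = 0.000378, and 0.00104 with no filter, limma). For both, suvh2/9 stood clear of fve and Col-0. The fve difference from Col-0 was not called for either, at log2 0.41 (adjusted p = 0.291) and 0.07 (adjusted p = 0.909, limma). Without either suvh2/9 library these 2 loci and AT4G06265 below fell under the filter and could not be tested.

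Both noncoding loci that rose in suvh2/9 lay outside the spans. AT4G06265 (chr4:8460579-8461333) had 4.6 and 3.81 CPM in suvh2/9 and 0.139 and 0.555 CPM in fve, against 0.0456 and 0.0937 CPM in Col-0 (log2 2.28, adjusted p = 6.47e-05, and 0.00942 with no filter, limma). It overlaps AT4G06260 and AT4G06275, and the strand of the reads is not given, so these loci cannot be told apart. AT2G06995 (chr2:7633214-7634069) had 1.92 and 2.02 CPM in suvh2/9 and 1.48 and 1.8 CPM in fve, against 0.321 and 0.188 CPM in Col-0. It was called in both mutants, at log2 1.25 in suvh2/9 (adjusted p = 0.00255) and 1.07 in fve (adjusted p = 0.00434, limma), though the fve call was lost without Col-0 replicate 2 or fve replicate 2. These comparisons share their Col-0 libraries. AT2G06995 passed the filter of this table only through suvh2/9 and fve, and it was also called in both with no filter. A copy of at least 95% identity elsewhere in the nuclear genome covers 45.7% of AT2G06995, so reads of the copies may not be told apart.

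The remaining riser was already well expressed. AT2G07180 (inside), a protein kinase gene, had 40.3 and 35.2 CPM in suvh2/9 and 23.8 and 26.3 CPM in fve, against 25 and 22.4 CPM in Col-0 (log2 0.65, adjusted p = 0.00427, limma). Among the 3 that fell, ARGAH2 (AT4G08870), an arginase that breaks down arginine, had 82.1 and 89.5 CPM in suvh2/9, against 116 and 130 CPM in Col-0 (log2 -0.51, adjusted p = 0.00639, limma). UMAMIT20 (AT4G08290), of a family of amino acid exporters, had 28 and 28.3 CPM in suvh2/9, against 41.8 and 40.9 CPM in Col-0 (log2 -0.54, adjusted p = 0.00781, limma). For each of these 3 genes the suvh2/9 and Col-0 libraries did not overlap, but leaving out Col-0 replicate 2 ended their calls. Leaving out Col-0 replicate 1 ended that of UMAMIT20. All 3 calls were also lost with no filter, and with no mean-variance trend in the fit.

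AT2G13550, of no described function, was called lower in 3 of the 5 mutants. It had 1.36 and 1.6 CPM in suvh2/9 and 1.53 and 2.03 CPM in fve, against 4.77 and 5.2 CPM in Col-0, with calls in suvh2/9 (log2 -1.27, adjusted p = 0.00124) and fve (log2 -1.11, adjusted p = 0.00211, limma). In the second table it had 1.36 and 1.45 CPM in pdp1/2/3, 1.71 and 2.03 CPM in the quadruple mutant and 1.84 and 2.15 CPM in rrm1, against 2.67 and 2.75 CPM in Col-0. Every mutant library of either table was below both Col-0 libraries of that table, but beside fve and suvh2/9 only pdp1/2/3 was called (log2 -0.62, adjusted p = 0.00942, limma), and not without Col-0 replicate 3 or 4. The gene overlaps AT2G13555, and its strand cannot be separated here.

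**Figure D2:**
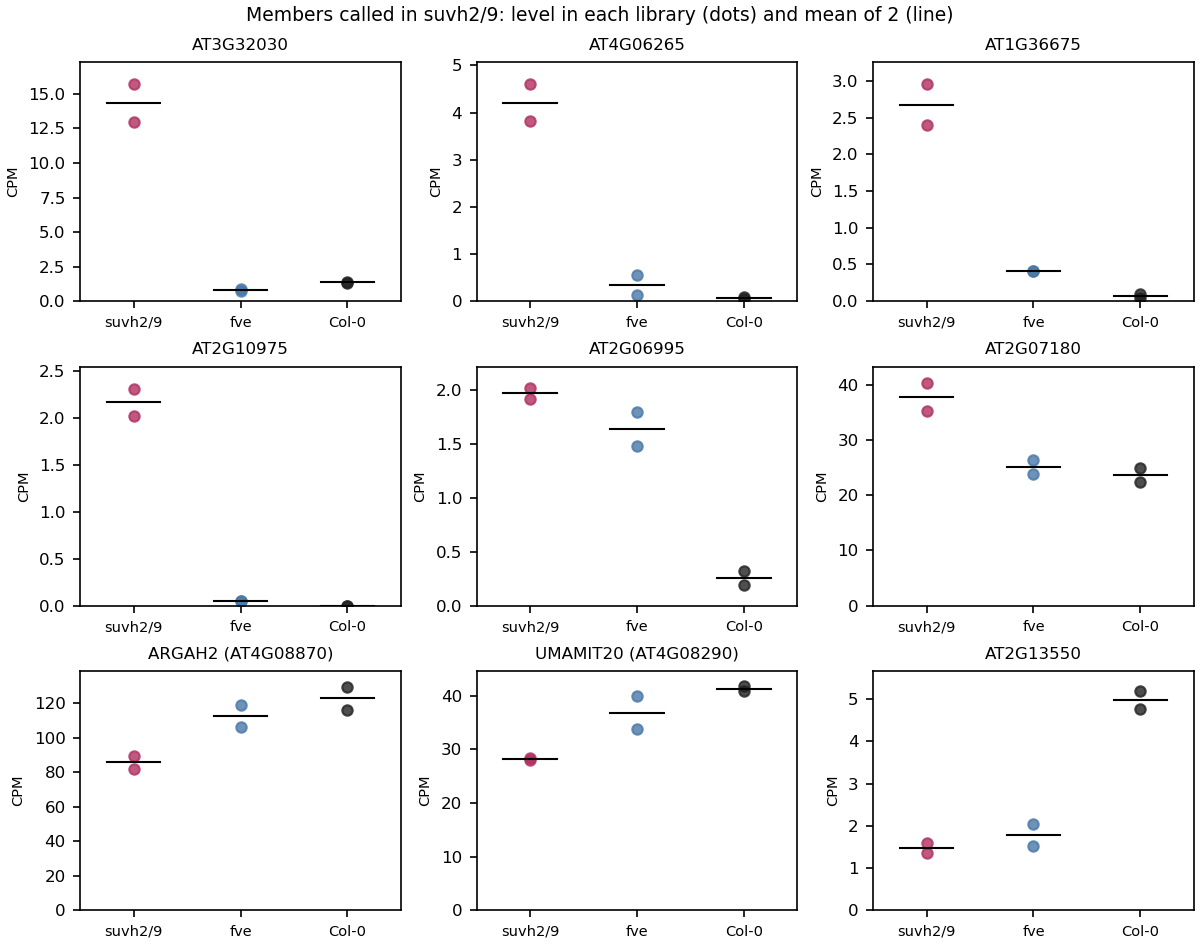
Level in CPM (vertical axis, from 0) of the 9 members called in suvh2/9, in each library of suvh2/9, fve and Col-0 (dots), with the mean of 2 (line). The first 4 panels show loci high in both suvh2/9 libraries and low in fve and Col-0; AT2G06995 and AT2G13550 differ from Col-0 in fve as well.

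Some members were seen in suvh2/9 and not in Col-0. At least 3 counts in both suvh2/9 libraries, with 0 in both Col-0 libraries, were found for 5 members, or 0.316% of the 1582, where 0.0891% of all rows had that pattern (29 rows). Beside AT2G10975 these were AT2G13430, with 1.88 and 0.756 CPM in suvh2/9, AT2G10920 (0.282 and 0.235 CPM), AT2G13770, annotated as a nuclease (0.235 and 0.235 CPM), and the noncoding AT4G05850 (0.235 and 0.141 CPM), which lies outside its span. All but AT2G10975 were below the filter and had no test, most sit within a few counts of the limit, and they were picked out after their values were seen. AT2G13430 was at 0.0927 and 0.139 CPM in fve.

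Few members changed in fve. Against Col-0, 4 of 251 members were called, 1 higher and 3 lower, or 1.59%, close to the 1.89% of all tested genes (361 genes, 1.12% higher and 0.77% lower), with 3.47% in the flanking rows. FVE itself was at 15.1 and 15.5 CPM in fve, against 65.8 and 67.2 CPM in Col-0. The riser was AT2G06995 and the strongest fall that of AT2G13550, both described above. AT4G06115, a noncoding locus outside its span (chr4:7888862-7889072), had 1.16 and 1.29 CPM in fve and 1.46 and 1.32 CPM in suvh2/9, against 2.38 and 3.47 CPM in Col-0 (log2 -0.80, adjusted p = 0.0306, limma). AT5G28500 (inside), a gene for a rubisco accumulation factor-like protein of the chloroplast, had 183 and 190 CPM in fve and 225 CPM in both suvh2/9 libraries, against 216 and 235 CPM in Col-0 (log2 -0.27, adjusted p = 0.0311, limma). The calls of AT4G06115 and AT5G28500 were lost when any 1 fve or Col-0 library was left out, with no filter, and with no trend. The count of 4 was 2 and 1 without Col-0 replicate 1 or 2, 1 without fve replicate 2 and 7 without either suvh2/9 library, which share the fit. Inside the spans 2 of 238 members were called in fve. AT2G13547 (inside), below the filter, was seen in fve with 0.557 and 0.276 CPM and was at 0 in both Col-0 libraries, a pattern of 0.0632% of the members and 0.0277% of all rows.

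Set directly against suvh2/9, fve differed at 10 of 251 members, 2 higher and 8 lower, or 3.98%, where 2.06% of all tested genes differed (1.22% higher and 0.843% lower) and 5.69% of the flanking rows (23 of 404), a share above that of the members. Of the 8 lower, 4 passed the filter only through suvh2/9, namely AT4G06265, AT2G10975, AT1G36675 and AT2G08575. Without every gene of that kind 6 of 238 members differed (2.52%), and 1.83% of all genes. AT3G32030 (log2 -3.08, adjusted p = 1.91e-07), AT4G06265 (log2 -1.96, adjusted p = 0.000186), AT2G10975 (log2 -1.59, adjusted p = 0.000452) and AT1G36675 (log2 -1.37, adjusted p = 0.00113, limma) were all lower in fve. AT5G35170 (inside), of the adenylate kinase family, had 231 and 229 CPM in fve, against 296 and 291 CPM in suvh2/9 (log2 -0.35, adjusted p = 0.00464, limma). AT2G07180 (log2 -0.57) and AT5G28500 (-0.27) were also lower in fve, and ARGAH2 (0.39) and UMAMIT20 (0.37) were higher. The calls of AT5G35170 and ARGAH2 were lost without fve replicate 1 or 2, and that of ARGAH2 also without suvh2/9 replicate 1. That of AT2G07180 was lost without fve replicate 1, and that of AT5G28500 without any 1 library. The call of UMAMIT20 was lost without any 1 library but fve replicate 1. With no filter or no trend the calls of AT2G07180, AT5G28500, ARGAH2 and UMAMIT20 were lost, and with no trend also that of AT5G35170. The count of 10 was 5 without either fve library, and 4 or 6 without suvh2/9 replicate 1 or 2. AT2G06995 and AT2G13550 were not called between these mutants (adjusted p = 0.693 and 0.692, limma), which does not show that their levels were equal.

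The rrm1 mutant was compared with the second Col-0. One locus appeared that was at 0 in Col-0, and 5 others changed, 3 of them higher. In all 6 of 256 members were called, 4 higher and 2 lower, or 2.34%, where 4.03% of all 19241 tested genes were called (775 genes, 2.74% higher and 1.29% lower) and 3.99% in the flanking rows. AT3G33528 (inside, chr3:14082640-14084346), of no described function, had 1.35 and 1.38 CPM in rrm1, 1.6 and 1.56 CPM in the quadruple mutant and 0.105 and 0.155 CPM in pdp1/2/3, and was at 0 in both Col-0 libraries. Both groups that carry rrm1 were high and the others low, and the filter was passed only through these 4 libraries. Against the level of 3 counts, its mean was at least 8.75-fold higher in rrm1 (log2 1.24, adjusted p = 0.00147) and at least 10.1-fold higher in the quadruple mutant (log2 1.37, adjusted p = 0.000135, limma). Both calls held with no filter. It was the 1 member with at least 3 counts in both libraries of rrm1, and also the 1 member in the quadruple mutant, and 0 counts in Col-0, where 0.0154% and 0.043% of all rows had that pattern. A copy elsewhere in the nuclear genome covers 48.9% of the gene. In the first table it had 0.325 and 0.0919 CPM in fve and 0.328 and 0.189 CPM in suvh2/9, against 0.0458 and 0.0469 CPM in Col-0, and was not tested there.

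The other rrm1 calls were smaller or less steady. AT2G06995, described above, had 1.5 and 1.18 CPM in rrm1, against 0.566 and 0.16 CPM in Col-0 (log2 0.79, adjusted p = 0.0384, limma). This locus passed the filter of the second table only through the 2 rrm1 libraries and could not be tested without either of them, and with a pseudocount of 0.1 the call was lost. It was at 0.259 to 0.367 CPM in pdp1/2/3 and the quadruple mutant, overlapping Col-0. RAP2.9 (AT4G06746), an ERF-type transcription factor gene, had 2.41 and 1.38 CPM in rrm1 and 1.6 and 1.56 CPM in the quadruple mutant, against 0.77 and 0.583 CPM in Col-0 (log2 0.77 and 0.63, adjusted p = 0.0391 and 0.0359, limma). Both of these rrm1 calls were lost without Col-0 replicate 3 or 4, and that of RAP2.9 without rrm1 replicate 1 and with no filter. The RAP2.9 call in the quadruple mutant was lost without any 1 of its own or the Col-0 libraries. RAP2.9 passed the filter only through rrm1 and the quadruple mutant, the groups in which it was high. ABCG5 (AT2G13610), an ABC transporter gene, was higher in rrm1 (log2 0.38), and the cyclophilin gene AT5G35100 and AT5G35170 were lower (log2 -0.35 and -0.34). With any 1 library of rrm1 or Col-0 left out, the calls of these last 3 genes were lost, as they were with no filter or no trend. ABCG5 was also called higher in pdp1/2/3 (25.4 and 27.6 CPM, against 17.6 and 19.3 CPM in Col-0), where every alternative kept the call. In the quadruple mutant its call was lost without any 1 quadruple or Col-0 library. In rrm1 replicate 1 and replicate 1 of the quadruple mutant values between 0.5 and 10 lay within 0.2 of a whole number less often than in the other 12 libraries (72.8% and 90%, against at least 99.8%), and without these 2 libraries only 1 member was called in rrm1. The count of 6 was also 1 without either Col-0 library or rrm1 replicate 1, 3 without rrm1 replicate 2, and 14 without either pdp1/2/3 library, which share the fit.

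**Figure D3:**
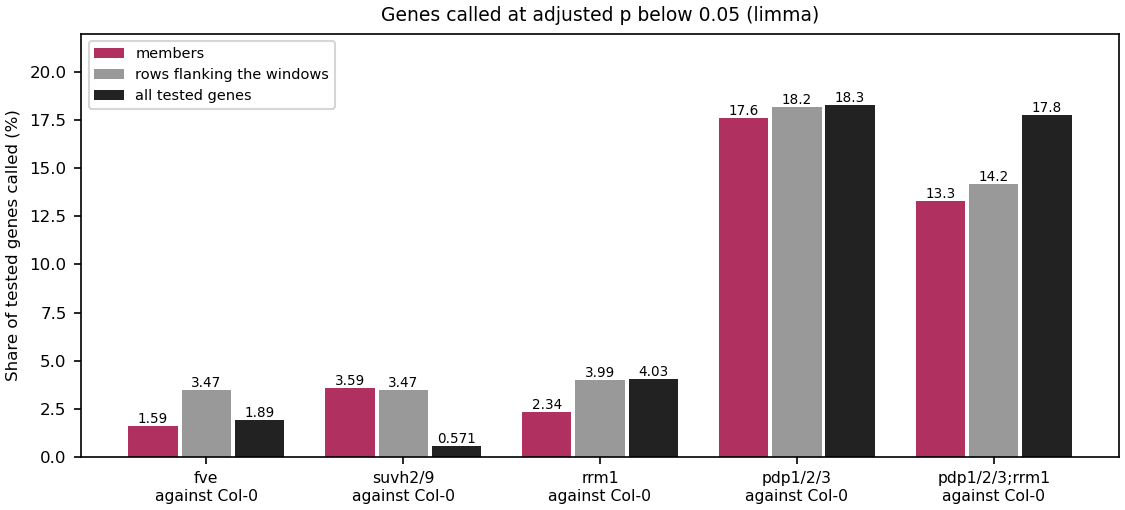
Share of tested genes called at an adjusted p below 0.05 (vertical axis, percent) in each mutant against the Col-0 of its table, for members, the rows flanking the windows and all tested genes. Members exceed all genes in suvh2/9 alone (3.59% against 0.571%), where the flanking rows are at 3.47%. Of the 9 members called there, 3 passed the filter only through suvh2/9, and without genes of that kind the shares were 2.47% and 0.488%.

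The pdp1/2/3 triple mutant changed many members, in the proportion in which it changed genes at large. ACS11, SHM7, MGDC and BZO2H3 were among the genes that rose, and AT5G28910, AT1G36280, BGLU24 and ALD1 among those that fell. Of 256 members 45 were called, 20 higher and 25 lower, or 17.6%, where 18.3% of all tested genes were called (3513 genes). Among all genes 2086 were higher (10.8%) and 1427 lower (7.42%). The split of the members turned to more higher than lower without Col-0 replicate 3 or 4, and leaned further to lower without pdp1/2/3 replicate 1. With no filter it was 23 higher and 21 lower. Without pdp1/2/3 replicate 2 the count was 28, with 12 higher and 16 lower. Over the members the median log2 difference was -0.03, and over all tested genes -0.01. Below the filter, AT3G32920, annotated as a nucleoside triphosphate hydrolase, was seen in pdp1/2/3 with 0.262 and 0.363 CPM and was at 0 in Col-0, a pattern of 0.0277% of all rows.

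ACS11 (AT4G08040), an ACC synthase that makes the ethylene precursor, showed the largest rise on the log2(CPM + 1) scale. It had 2.73 and 4.77 CPM in pdp1/2/3, 1.23 and 1.82 CPM in the quadruple mutant and 0.495 and 0.873 CPM in rrm1, against 0.154 and 0.212 CPM in Col-0. The groups did not overlap. ACS11 passed the filter only through pdp1/2/3 and the quadruple mutant, in which it was high. It was also called in both with no filter. The difference from Col-0 was 1.97 in pdp1/2/3 (adjusted p = 7.71e-05) and 1.09 in the quadruple mutant (adjusted p = 0.00496, limma) on the log2 scale, and in rrm1 it was not called (log2 0.50, adjusted p = 0.238, limma). The quadruple call was lost without replicate 2 of that mutant (adjusted p = 0.0571).

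SHM7 (AT1G36370), a serine hydroxymethyltransferase of one-carbon metabolism, had 128 and 133 CPM in pdp1/2/3, 87.7 and 96 CPM in the quadruple mutant and 72.8 and 72 CPM in rrm1, against 65.8 and 64 CPM in Col-0. The mean in pdp1/2/3 was 2.01 times that of Col-0 (log2 1.00, SE 0.07, adjusted p = 3.25e-06, limma), and in the quadruple mutant 1.42 times (log2 0.49, adjusted p = 0.000359). It was the 1 member whose rrm1 effect differed with and without pdp1/2/3, as an interaction of -0.66 on the log2 scale (SE 0.09, adjusted p = 0.018, limma). That is 0.391% of the members, where 0.301% of all tested genes had such an interaction (58 genes). The interaction call was lost without rrm1 replicate 2, Col-0 replicate 3 or Col-0 replicate 4, and without both libraries numbered 1 of rrm1 and the quadruple mutant (adjusted p = 0.0735, limma).

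Other genes rose by less. MGDC (AT2G11810), which makes galactolipids in membranes, had 7.91 and 7.51 CPM in pdp1/2/3, against 3.64 and 3.6 CPM in Col-0 (log2 0.91, adjusted p = 0.00223, limma), and was at 4.21 and 2.5 CPM in the quadruple mutant, overlapping Col-0. BZO2H3 (AT5G28770), a bZIP transcription factor gene, had 46.5 and 49.6 CPM in pdp1/2/3 and 39.2 and 46 CPM in the quadruple mutant, against 24.7 and 28.9 CPM in Col-0 (log2 0.82 and 0.65, adjusted p = 9.83e-05 and 0.000657, limma). The myotubularin-like AT1G36940 and the glycine-rich AT5G28630 rose in both mutants as well, the second more in the quadruple mutant (log2 1.28) than in pdp1/2/3 (log2 0.80), a difference that was not tested. The quadruple call of AT1G36940 was lost without Col-0 replicate 3 or quadruple replicate 2. The noncoding AT2G08680 and AT2G08820, outside the spans, were called in pdp1/2/3 at log2 0.95 and 0.99, and each overlaps another gene. Both passed the filter only through the 2 pdp1/2/3 libraries, and with no filter their adjusted p was 0.00353 and 0.0015 (limma).

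Among genes that fell, AT5G28910, annotated as an alpha-(1,6)-fucosyltransferase, had 4.61 and 3.21 CPM in pdp1/2/3, 5.07 and 3.65 CPM in the quadruple mutant and 6.28 and 7.33 CPM in rrm1, against 9.85 and 10.8 CPM in Col-0. It was called in pdp1/2/3 (log2 -1.22, adjusted p = 0.000291) and in the quadruple mutant (log2 -1.09, adjusted p = 0.000796, limma). The L-aspartase-like AT1G36280 (log2 -0.86), the beta-glucosidase BGLU24 (AT5G28510, -0.74), the ERF-type factor RAP2.6 (AT1G43160, -0.66) and the biotin-attaching enzyme gene HCS2 (AT1G37150, -0.61) fell in pdp1/2/3. Chloroplast genes among the falls were AT1G44000, a STAY-GREEN-like gene (log2 -0.46), AT5G28500 (-0.44) and SAPX (AT4G08390), the stromal ascorbate peroxidase (-0.39). HCS2 lost its call when any 1 of the pdp1/2/3 or Col-0 libraries was left out, and BGLU24 without Col-0 replicate 3.

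**Figure D4:**
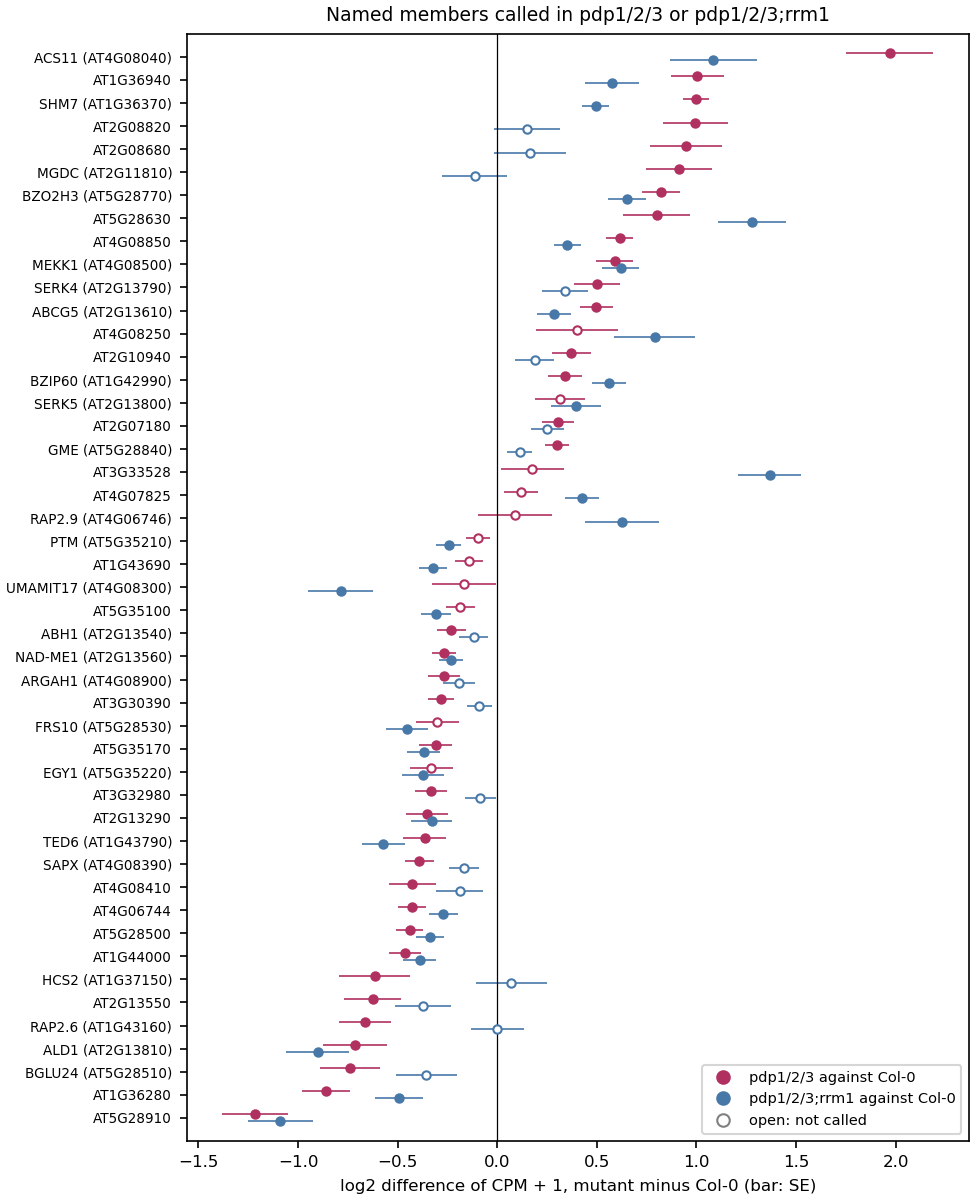
Log2 difference of CPM + 1 from Col-0 (horizontal axis, bars SE) in pdp1/2/3 and the quadruple mutant for the 47 named members called in either; filled points were called and open points were not. Of these, 19 were called in both mutants, and the comparisons share their Col-0 libraries.

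In the quadruple mutant 34 of 256 members were called, 15 higher and 19 lower, or 13.3%, where 17.8% of all tested genes were called (3427 genes, 10.7% higher and 7.09% lower) and 14.2% in the flanking rows. AT3G33528, AT5G28630 and ACS11 showed its largest rises on the log2(CPM + 1) scale. AT4G08250, a GRAS-family transcription factor gene, had 2.4 and 1.3 CPM in the quadruple mutant, against 0.77 and 0.478 CPM in Col-0 (log2 0.79, adjusted p = 0.0195, limma). It passed the filter only through the quadruple mutant, and with no filter its adjusted p was 0.0377 (limma). BZIP60 (AT1G42990), a transcription factor of the endoplasmic reticulum stress response, had 44.5 and 45 CPM in the quadruple mutant and 41.2 and 35.6 CPM in pdp1/2/3, against 30.6 and 29.4 CPM in Col-0 (log2 0.56 and 0.34, adjusted p = 0.000902 and 0.0167, limma). UMAMIT17 (AT4G08300), of the amino acid exporter family, fell (log2 -0.79), as did TED6 (AT1G43790), needed for tracheary element differentiation (log2 -0.57), and FRS10 (AT5G28530), of the FAR1-related family (log2 -0.45). Calls were lost without quadruple replicate 2 for UMAMIT17 and FRS10, without quadruple replicate 1 for AT4G08250, and without Col-0 replicate 3 or 4 for AT4G08250 and FRS10. The call of BZIP60 in pdp1/2/3 was lost without pdp1/2/3 replicate 1 or either Col-0 library. Without Col-0 replicate 3 or 4 or quadruple replicate 2 the members called numbered 18, 14 or 16.

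Of 8 defence genes listed, 6 were tested in the second table. Of these, 3 were called in pdp1/2/3 and 3 in the quadruple mutant (50% each, where 18.3% and 17.8% of all tested genes were called). The list was chosen with earlier results of these data known, so nothing about defence genes at large follows from these shares. In pdp1/2/3, MEKK1 (AT4G08500), a MAP kinase kinase kinase of the response to microbial patterns, and SERK4 (AT2G13790), a receptor co-kinase, rose, and ALD1 (AT2G13810), which makes the pipecolic acid precursor of systemic resistance, fell. MEKK1 had 41.2 and 36.4 CPM in pdp1/2/3, 36.6 and 42.8 CPM in the quadruple mutant and 23.2 and 22.2 CPM in rrm1, against 26 and 24.9 CPM in Col-0 (log2 0.59 and 0.62 in the first 2, adjusted p = 0.000825 and 0.00072, limma). ALD1 had 0.891 and 0.932 CPM in pdp1/2/3, 0.852 and 0.521 CPM in the quadruple mutant and 1.45 and 1.49 CPM in rrm1, against 2 and 2.28 CPM in Col-0 (log2 -0.71 and -0.90 in the first 2, adjusted p = 0.00825 and 0.00228, limma). In the quadruple mutant SERK5 rose with MEKK1 and ALD1 fell. The SERK5 call was lost without any 1 quadruple, rrm1 or Col-0 library, with no filter, and with no trend. That of SERK4 was lost without pdp1/2/3 replicate 1 or Col-0 replicate 4, and that of ALD1 in pdp1/2/3 without Col-0 replicate 4. MEKK3 and MAPKKK9, the neighbours of MEKK1, were not called, and 0 of the list were called in fve, suvh2/9 or rrm1 (limma), where 1, 0 and 1 had an unadjusted p below 0.05. Of all tested genes 14%, 6.64% and 18.9% had such a p in these mutants. The median log2 difference of the 6 was 0.24 in pdp1/2/3 and 0.17 in the quadruple mutant, against -0.01 and 0.00 over all tested genes. The receptor-like kinase AT4G08850, left out of the list because its listed symbol did not match the annotation, had 163 and 149 CPM in pdp1/2/3 and 131 and 128 CPM in the quadruple mutant, against 106 and 97.5 CPM in Col-0 (log2 0.61 and 0.35, adjusted p = 8.07e-05 and 0.00414, limma), the quadruple call being lost without Col-0 replicate 4.

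**Figure D5:**
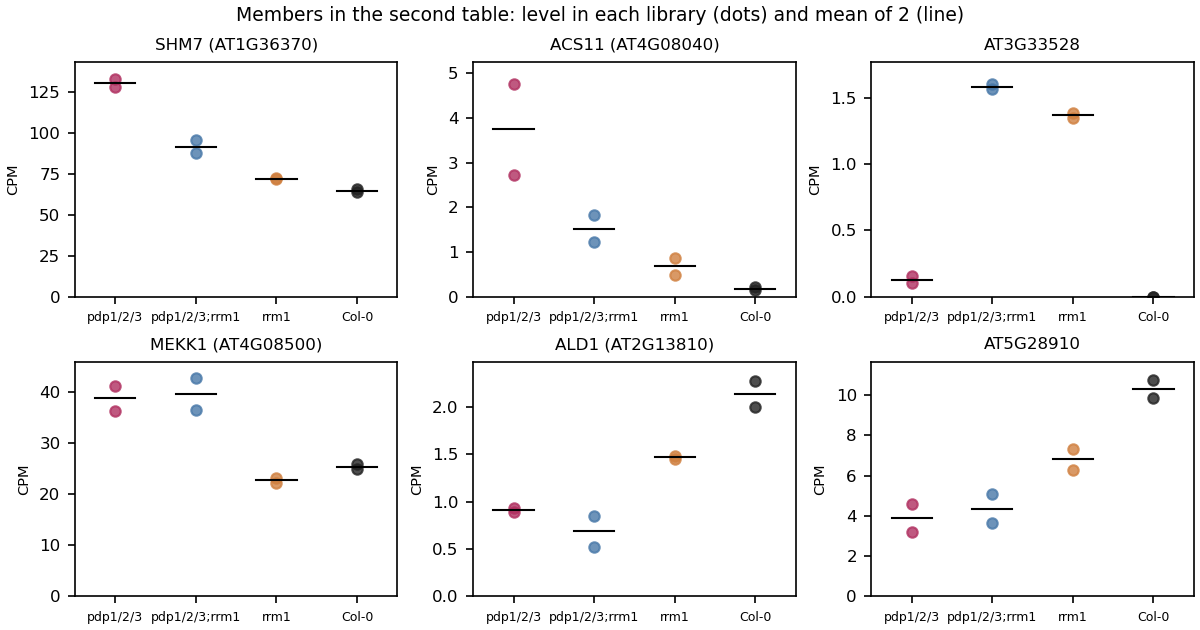
Level in CPM (vertical axis, from 0) of 6 members in each library of pdp1/2/3, the quadruple mutant, rrm1 and Col-0 (dots), with the mean of 2 (line). SHM7 and ACS11 are highest in pdp1/2/3, AT3G33528 is high in both groups that carry rrm1, and ALD1 and AT5G28910 are lowest in pdp1/2/3 and the quadruple mutant.

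The other lists held metabolism, cell wall and chromatin genes, and were likewise chosen with earlier results of these data known. Of 13 carbon and amino acid metabolism genes (AT5G28500 was left out, as its listed symbol did not match), pdp1/2/3 had 0 higher and 3 lower, namely NAD-ME1 (malic enzyme of mitochondria, log2 -0.27), ARGAH1 (-0.27) and AT5G35170 (-0.31), a share of 23.1% beside the 18.3% of all genes. The quadruple mutant had 0 higher and 3 lower, NAD-ME1 (-0.23), AT5G35170 (-0.37) and the chloroplast protease EGY1 (-0.37), also 23.1%, beside the 17.8% of all genes. GAPB, FBP and AGT were among those not called. Of these calls, that of EGY1 was lost without any 1 Col-0 or quadruple library and that of ARGAH1 without any 1 Col-0, pdp1/2/3 or rrm1 library. NAD-ME1 lost both calls without either Col-0 library, and that in the quadruple mutant also without its replicate 2. AT5G35170 lost its call in pdp1/2/3 without either Col-0 library or pdp1/2/3 replicate 2, and in the quadruple mutant without Col-0 replicate 4 or quadruple replicate 2. With no filter or no trend, the calls of EGY1 and ARGAH1 and the pdp1/2/3 call of AT5G35170 were also lost. The quadruple call of NAD-ME1 was lost with no trend. Of 8 cell wall genes tested there, pdp1/2/3 had GME, an epimerase of ascorbate and wall sugar synthesis, higher (log2 0.30) and the extensin-like AT4G08410 lower (-0.43), or 25% beside the 18.3% of all genes, and 0 were called in the other 4 mutants (limma). In those 4, fve, suvh2/9, rrm1 and the quadruple mutant, 0, 3, 2 and 1 had an unadjusted p below 0.05. Of all tested genes 14%, 6.64%, 18.9% and 31.2% had such a p in these mutants. Of 15 chromatin and transcription genes pdp1/2/3 had BZO2H3 higher and the cap-binding subunit gene ABH1 lower (log2 -0.23), and the quadruple mutant had BZO2H3 higher and PTM, a chloroplast envelope PHD factor, lower (-0.24). These are 13.3% of the list in either mutant, below the 18.3% and 17.8% of all genes. ARP6 of the SWR1 remodelling complex, the elongation factor gene GTA2, the RNA helicase gene HEN2 and the remodeller gene CHR5 were not called in any mutant. GME lost its call without Col-0 replicate 4, and ABH1 without any 1 library of the table and with only the groups compared. AT4G08410 lost its call without pdp1/2/3 replicate 1 or either Col-0 library, and PTM without quadruple replicate 2 or either Col-0 library. With no filter or no trend ABH1 and AT4G08410 also lost theirs, and with no trend PTM did. In fve 0 carbon and 0 chromatin genes were called (limma), with 4 and 0 at an unadjusted p below 0.05, beside 14% of all tested genes. In suvh2/9 the carbon list had ARGAH2 alone lower and in rrm1 AT5G35170 alone. The chromatin list had 0 calls in either, with 2 and 1 at an unadjusted p below 0.05, beside 6.64% and 18.9% of all tested genes. The median log2 differences in pdp1/2/3 were -0.24 for the carbon, -0.04 for the cell wall and 0.02 for the chromatin list, against -0.01 over all tested genes. In the quadruple mutant they were -0.17, 0.05 and -0.07 in that order of lists, against 0.00.

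The extensin genes differed between replicates in the first table. EXT13 (AT5G35190), a structural wall protein of roots, had 30.9 and 19.4 CPM in fve and 35 and 21.9 CPM in suvh2/9, against 16.7 and 18.8 CPM in Col-0. AT4G08410 had 16.8 and 11.4 CPM in fve and 19.4 and 11.1 CPM in suvh2/9, against 8.84 and 11.1 CPM in Col-0. In both mutants replicate 1 was high and replicate 2 closer to Col-0, and neither gene was called. The same libraries held more signal from the mitochondrial copies, much of it at AT2G07732, and the part of that difference here was not tested.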

How the data were processed

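RNA-seq signal was taken from the tables that the authors deposited, which hold a normalised value per gene and library whose definition is not given in the sources used here. HISAT2, featureCounts, edgeR and the TAIR10 build are named in the submitters' processing notes, with no role or version. Library totals ranged between 21259805 and 21722950 for fve, suvh2/9 and their Col-0, and between 18609045 and 19534578 for the other groups. Values were divided by the mean library total of their table, the same for all its libraries, to give CPM. In 12 of the 14 libraries at least 99.8% of deposited signal values between 0.5 and 10 lay within 0.2 of a whole number, and counting limits cover counting error only. The strand of the reads is not given in the sources used here.

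Genes at or above 1 CPM in 2 or more of a table's libraries were fitted on log2(CPM + 1) with limma 3.58.1 (R 4.3.3, mean-variance trend), all groups of a table in 1 fit, without a replicate block, and p-values were adjusted over all tested genes by Benjamini-Hochberg. The 2 tables were tested apart. Correlations of the deviations of same-numbered libraries were 0.0055, 0.144 and 0.197 in the first table, and -0.1, -0.011 and -0.039 among the mutants of the second. The main fit did not pair libraries by number. With a replicate block in the first table, calls over all genes were 643 in fve, 178 in suvh2/9 and 698 in fve against suvh2/9. Without it they were 361, 109 and 394. Whether same-numbered libraries of that table shared a batch was not tested. The fit was checked on simulated data. Copies were found with BLAST 2.17.0+, at a minimum of 95% identity. Positions, promoters and names come from RefSeq TAIR10.1.

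Members and gene lists were chosen with earlier results of these data known. The genes named are every member called where a comparison with Col-0 called 30 or fewer, otherwise the 12 called highest and 12 called lowest, the 2 members of highest level and the 1 of largest range in each window, and the listed genes. Members seen in a mutant alone are named in addition. Alternatives tried were the pseudocount, the filter, the trend, the scaling, the samples in the fit, each library left out, the replicate block and the limits of the windows.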

Additional observations from a re-analysis of the deposited data

Results flagged for a closer look

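SHM7, the serine hydroxymethyltransferase gene, was picked out because the effect of rrm1 differed with and without pdp1/2/3, by an interaction term. It had 87.7 and 96 CPM in the quadruple mutant, 128 and 133 CPM in pdp1/2/3 and 72.8 and 72 CPM in rrm1, against 65.8 and 64 CPM in Col-0. The interaction was -0.66 on the log2 scale (SE 0.09, adjusted p = 0.018, limma with Benjamini-Hochberg adjustment). Leaving out rrm1 replicate 2, either Col-0 library, or both libraries numbered 1 of rrm1 and the quadruple mutant (adjusted p = 0.0735, limma) ended the call, and over its alternatives the adjusted p ranged between 0.00401 and 0.148 and the estimate between -0.72 and -0.59.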

How the results depend on the processing

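Of the values of named members under the alternatives, 9111 kept their side of the threshold, 235 lost their call and 72 gained one. Direction was compared only for values called in the main fit or the alternative, and 0 of those reversed. For values called in neither, direction was not compared. The cause was not tested. For fve the members called numbered 4, and were 2 with no trend, 7 with only the groups compared, 7 with the replicate block, 0 in the inner part of each window and 2 only inside the spans. For suvh2/9 the 9 became 2 in the inner part of each window. For rrm1 the 6 became 19 with only the groups compared, 1 without both libraries numbered 1 of rrm1 and the quadruple mutant, and 1 in the inner part. For pdp1/2/3 the 45 became 14 and for the quadruple mutant the 34 became 7 in the inner part. For fve against suvh2/9 the 10 became 5 with no trend and 3 in the inner part. For the interaction the 1 became 0 with no filter, 0 with no trend, 2 with the left-out loci put back, 0 in the inner part and 2 over all rows inside the spans. The inner part tests only 75 and 77 members, so fewer could be called there. Leaving out 1 library at a time gave 1 to 7 members in fve, 6 to 9 in suvh2/9, 1 to 14 in rrm1, 20 to 46 in pdp1/2/3, 14 to 38 in the quadruple mutant, 4 to 7 in fve against suvh2/9 and 0 to 6 for the interaction. With the replicate block, suvh2/9 had 11 members and fve against suvh2/9 14, and over all genes fve, suvh2/9 and fve against suvh2/9 had 643, 178 and 698 calls, against 361, 109 and 394 without it. No paired analysis was possible for the comparisons of the second table because each includes its Col-0, whose libraries carry other numbers than the mutants. With no filter the calls over all genes fell to 125 in fve, 59 in suvh2/9, 270 in rrm1 and 183 in fve against suvh2/9, and with no trend to 213, 63, 419 and 248. Without genes that passed the filter only through the higher group, fve against suvh2/9 had 6 members in place of 10. That count and the restrictions to members inside the spans and to all rows there were chosen after seeing the data. Below 0.14 and 0.156 CPM levels could not be told from 0 at this depth.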
